A study of Homo sapiens with 12 samples.

Results

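The vehicle libraries of PANC-1 are described here across genes: which transcripts were abundant, and which lineage, cancer, junction, receptor and matrix genes were expressed or absent. The libraries were chosen by their label alone, as the 3 libraries of the vehicle group among 12 in the series. PANC-1 is an established human cell line from a carcinoma of the pancreas, used below passage 30 per the labels. The cells of the 3 libraries had received only the solvent DMSO for 24 h. They carry no transgene in the labels, so they represent 1 line in 1 culture setting and not normal pancreas. The other 9 libraries received chaetocin, MLN8237 or both, and no comparison with them is made. The labels do not say whether the 3 libraries came from separate cultures, so the spread between them may be technical.

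Most pancreatic cancers arise with features of the duct, whose cells line the channels that drain the enzyme-secreting acini, while the islets secrete insulin and glucagon. Epithelial cells are held together by cadherins, claudins and desmosomes and carry keratin filaments, whereas mesenchymal cells carry vimentin and N-cadherin. Cell lines from such tumours range from epithelial to mesenchymal. PANC-1 is known from earlier work for a deletion of CDKN2A and extra copies of AKT2. DNA was not measured in these libraries.

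Levels are given as the RPKM, a read count scaled to gene length and to the total reads of the library, that the authors deposited, as mean ± SD over the 3 libraries (n = 3) or as the values of libraries 1, 2 and 3. A gene is called expressed where its RPKM was at least 1 in each library, not detected where at most 3 counts were found over all 3, and low otherwise. By that rule 14162 of 57773 genes, or 24.5%, were expressed and 30077, or 52.1%, were not detected. Of 19263 protein-coding genes 10868, or 56.4%, were expressed and 3662, or 19.0%, were not detected, and the median level of those expressed was 8.45 RPKM. Counts of expressed or undetected members in every list below are to be read against these 56.4% and 19.0%. Summed gene counts were 49439795 to 57539126 per library, and 322 protein-coding genes reached 100 RPKM in all 3. The 3 libraries resembled each other, with a Pearson correlation of log2 RPKM of 0.992 to 0.994 over the expressed genes, given as a description. At this depth 3 counts over the 3 libraries stand for 0.00408 RPKM in CDKN2A and 0.0231 RPKM in the short gene INS, a limit that covers counting error only. Fewer cells with a transcript and less of it per cell cannot be told apart in such bulk RNA.

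The 5 genes named as markers of these cells were all strongly expressed. KRT8 and KRT18, the keratin pair of simple epithelia, stood at 462, 448 and 391 RPKM and at 517, 486 and 437 RPKM. Among 7 listed epithelial keratins 4 overlap another gene, with which their reads may be shared. CD44, a receptor for the matrix sugar hyaluronan, was nearly level at 160, 160 and 158 RPKM. PLAU, the urokinase protease that activates plasminogen, stood at 162, 159 and 163 RPKM, and TXNRD1, the cytosolic thioredoxin reductase, at 99.2, 105 and 110 RPKM. In each of these genes the libraries lay close together, and all 5 ranked within the first 429 of 57773 genes. The label of an epithelial line thus had its keratin pair, while several other epithelial genes were low.

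**Figure D1:**
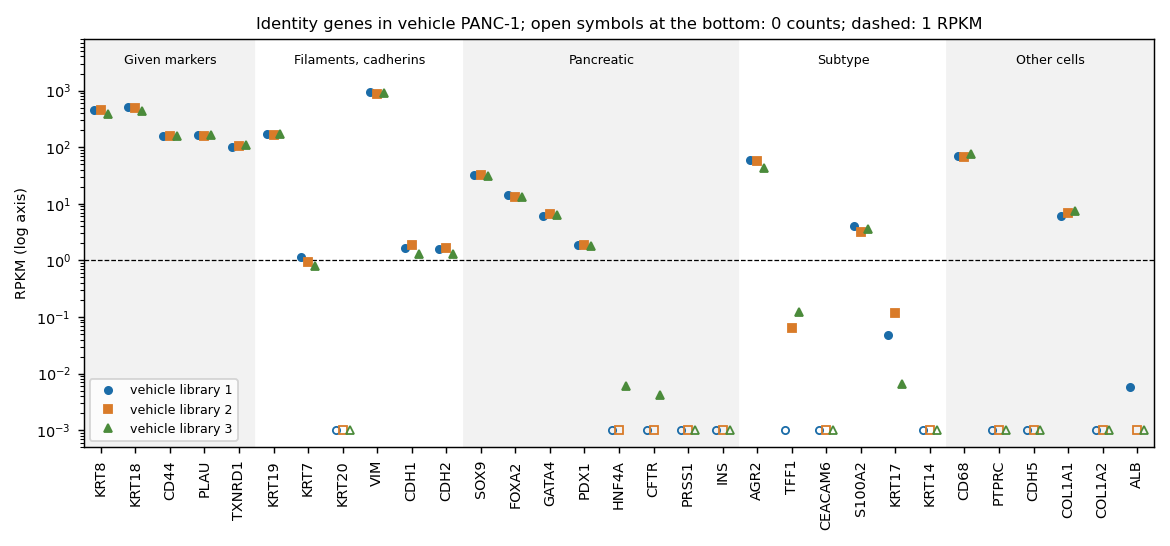
RPKM (log axis) of genes that mark cell identity in each of the 3 vehicle libraries, with open symbols at the bottom for 0 counts and a dashed line at 1 RPKM. KRT8, KRT18 and VIM stand at 391 RPKM or more in every library, while PRSS1, INS, PTPRC, CDH5 and COL1A2 have no counts in any.

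The filament genes joined an epithelial and a mesenchymal set. KRT19, the smallest keratin of ducts, was at 174, 162 and 174 RPKM, but KRT7, another keratin typical of ducts, was at 1.13, 0.944 and 0.80 RPKM and thus straddled the limit for expression. KRT18 was 506 ± 44.7 times as high as KRT7. KRT20, a keratin of intestinal epithelium, had no counts, and KRT80 was at 14.6 ± 0.905 RPKM. VIM, which encodes the mesenchymal filament vimentin, reached 942, 870 and 920 RPKM, above every keratin in every library. NES, the filament nestin of progenitor cells, was at 44.3 ± 4.70 RPKM and S100A4, a calcium-binding protein linked to migration, at 104 ± 7.50 RPKM. VIM shares its span with an antisense gene, RP11-124N14.3, itself listed at 2059 RPKM in library 1, and with no source here on whether strand was used in counting, their reads cannot be told apart.

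Cadherins did not follow vimentin. CDH1, the epithelial E-cadherin, was at 1.68, 1.88 and 1.27 RPKM and CDH2, the mesenchymal N-cadherin, at 1.59, 1.62 and 1.30 RPKM. The ranges overlap, and the ratio of CDH1 to CDH2 was 1.06 ± 0.0868, so neither cadherin dominated beyond the spread between libraries. VIM exceeded CDH1 by 582 ± 131 times. FN1, which encodes fibronectin and often accompanies vimentin, had only 84, 98 and 126 counts and a level of 0.106 RPKM. TAGLN, CALD1 and ACTA2, genes of contractile cells, were at 0.544, 0.398 and 0.330 RPKM, and FAP, a protease of activated fibroblasts, had no counts.

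Of 15 regulators of the switch between epithelial and mesenchymal states, 5 were expressed, 8 were low and 2 were not detected. The expressed share was 33.3%, against 56.4% of all protein-coding genes. On the mesenchymal side, FOXC2 was at 8.02 ± 0.429 RPKM, ZEB1, a repressor of CDH1, at 5.32 ± 0.498 RPKM and SNAI1, another such repressor, at 4.53 ± 0.116 RPKM. TWIST1 had 1 count and SNAI2 and ZEB2 had 62 and 72 over the 3 libraries. On the epithelial side, the splicing factor ESRP2 was at 6.22 ± 0.234 RPKM and OVOL2 at 3.38 ± 0.298 RPKM. ESRP1 was at 0.505 ± 0.0435 RPKM, and GRHL2, a factor that maintains epithelium, had 2 counts. Members of opposing function were thus found at similar levels in the same libraries.

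Among 18 duct markers 3 were expressed, KRT19, the transcription factor SOX9 at 32.2, 32.6 and 30.6 RPKM, and the membrane mucin MUC1 at 11.1, 10.7 and 10.9 RPKM. CFTR, the chloride channel of ducts, had 2 counts, all in library 3. Of 20 acinar markers only NR5A2, a nuclear receptor, was expressed, at 1.42 ± 0.151 RPKM, and 12 were not detected. The digestive enzymes PRSS1, CPA1, CPB1, AMY2A and PNLIP and the acinar factor PTF1A had no counts. Of 25 endocrine markers 3 were expressed and 11 not detected. INS, GCG, SST and PPY, the islet hormones insulin, glucagon, somatostatin and pancreatic polypeptide, had no counts in any library. The 3 expressed were the neuronal enolase ENO2 at 9.62 ± 0.396 RPKM, the beta cell factor MAFA at 3.04 ± 0.170 RPKM and the vesicle protein SYP at 1.61 ± 0.128 RPKM, none of them a hormone.

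The transcription factors that pattern the foregut and pancreas were expressed in part. FOXA2, a pioneer factor of endoderm, was at 14.1, 13.4 and 13.2 RPKM, GATA4 at 6.36 ± 0.244 RPKM and HHEX at 3.70 ± 0.177 RPKM. PDX1, the master factor of the pancreas, was expressed at 1.85, 1.89 and 1.79 RPKM. Their closest relatives were low: FOXA2 stood 120 ± 37.6 times above FOXA1, and GATA4 15.6 ± 3.73 times above GATA6. HNF4A, a factor of gut and liver epithelium, had 2 counts. In all, 5 of 18 such factors were expressed, 11 were low and 2 were not detected, against 56.4% expressed among all protein-coding genes.

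Pancreatic cancers are often sorted into a classical class, rich in gut-like secretory genes, and a basal-like class with squamous genes. Of 23 classical genes in the table only AGR2, which folds secreted mucins in the endoplasmic reticulum, was expressed, at 59.6, 56.7 and 43.4 RPKM with the lowest value in library 3. Its relative AGR3 and the genes CEACAM6, REG4, CLRN3, KRT20 and ST6GALNAC1 had no counts, while TFF1 and TFF2, small secreted peptides, had 6 and 5. Of 24 basal-like genes 3 were expressed, the glucose transporter SLC2A1 at 9.03 ± 0.490 RPKM, S100A2 at 3.59 ± 0.485 RPKM and KRT15 at 1.30 ± 0.0620 RPKM. A further 13 were not detected, among them SERPINB3, SERPINB4, SCEL, LY6D and VGLL1 at 0 counts. The median level was 0.0203 RPKM over the classical and 0.00625 RPKM over the basal-like genes, against 2.13 RPKM over all protein-coding genes. Of 15 mucins MUC1 alone was expressed and 6 were not detected, with MUC5AC at 33 counts and MUC4 at 8.

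Markers of other cells that a tumour or tissue can hold were mostly low or not detected, with 1 or 2 expressed members in each list. Of 16 immune markers only CD68, a protein of lysosomes, was expressed, at 70.3, 66.7 and 76.7 RPKM, and the summed level of the list was 67.8 to 78.1 RPKM per library. PTPRC, a surface protein of white blood cells, had no counts, nor had CD3D, CD3E and MS4A1. Of 11 endothelial markers EGFL7, a secreted protein, was expressed at 6.08 ± 0.559 RPKM, with a summed level of 6.19 to 7.36 RPKM, and CDH5, VWF, TEK, EMCN and PLVAP had no counts. Of 14 markers of fibroblasts and stellate cells COL1A1 and THY1 were expressed, with a summed level of 8.32 to 9.59 RPKM, and COL1A2, DCN and FAP had no counts. Of 12 genes of liver and intestine VIL1, an actin-bundling protein of microvilli, was expressed at 3.09 ± 0.119 RPKM, with a summed level of 3.17 to 3.42 RPKM, and APOB, FABP1 and AFP had no counts. Neural markers held 2 expressed genes of 13, the tubulin TUBB3 at 30.4 ± 1.86 RPKM and MAP2 at 2.41 ± 0.0992 RPKM, with a summed level of 30.9 to 34.3 RPKM, while GAP43, ELAVL4, STMN2 and S100B had no counts.

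**Figure D2:**
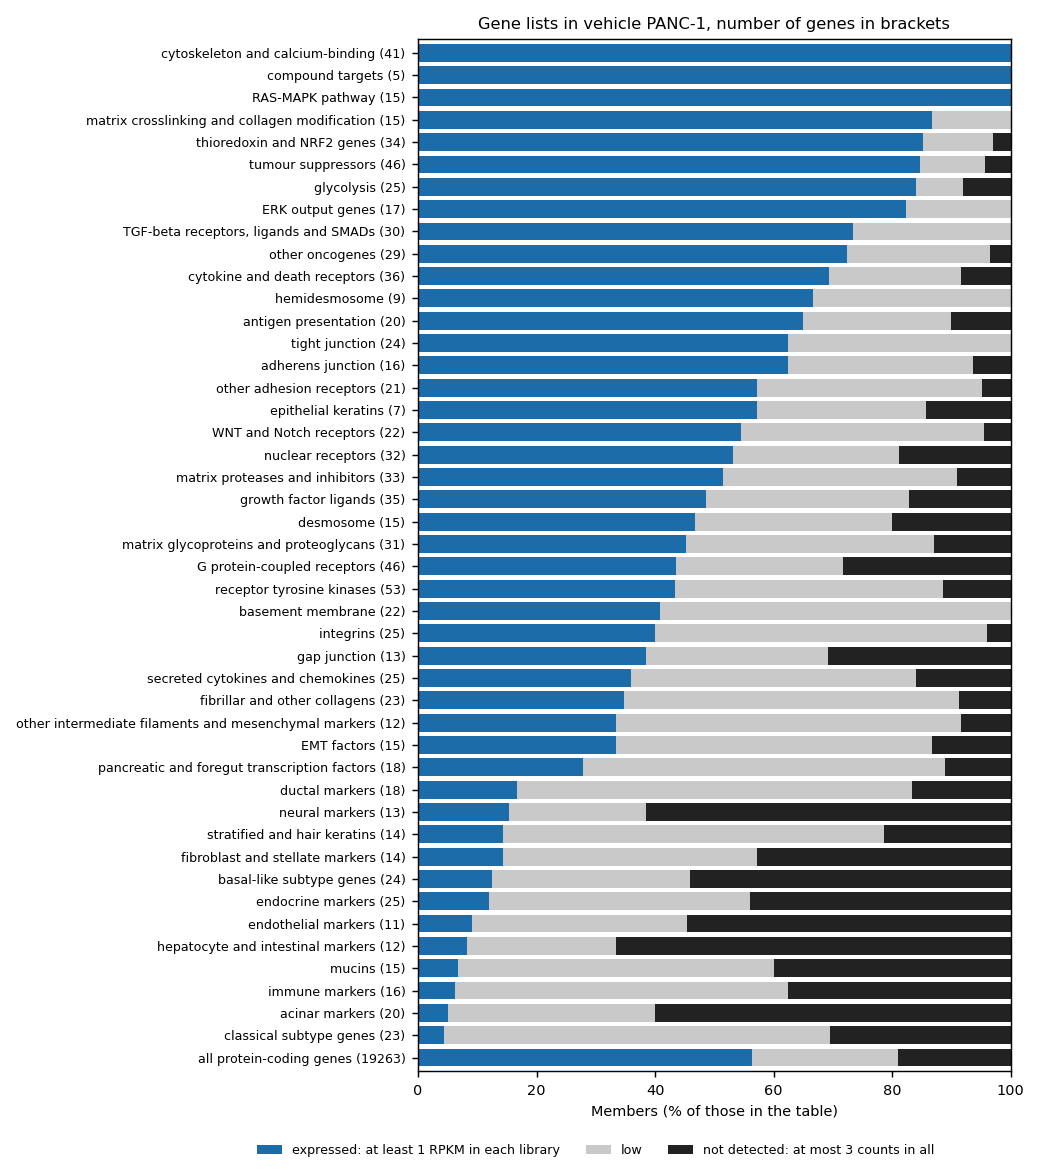
Members of each of 45 gene lists as the percentage expressed, low or not detected in the vehicle libraries, with the number of genes of each list in the table in brackets and all protein-coding genes at the foot. All members of the RAS-MAPK, cytoskeleton and compound target lists were expressed, while the classical, acinar, immune and mucin lists had 1 expressed member each, as had the endothelial and the hepatocyte and intestinal lists.

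Most genes at the top of the table were mitochondrial, or copies of mitochondrial genes. Of the 25 genes with the highest mean RPKM, 12 are encoded by mitochondrial DNA, led by MT-ND4, a subunit of respiratory complex I, at 3899, 3826 and 4060 RPKM. A further 6 are nuclear copies of mitochondrial genes that lie side by side on chromosome 1, and 18 of the 25 overlap another gene of the table. Mitochondria-encoded genes held 2.51 ± 0.128% of the gene counts and the chromosome 1 copies 1.20 ± 0.0657%. In the reference transcripts the 7 copies that were expressed are 97.6% to 99.4% identical to their mitochondrial originals over the part that aligned, which for MTND1P23 leaves out some of its 372 bases. The first 150 bases of MTATP8P1 and of MT-ATP8, which encodes a subunit of ATP synthase, show how little there is to separate their reads, with the 4 differing bases in capitals (GENCODE 29 transcripts).
MTATP8P1: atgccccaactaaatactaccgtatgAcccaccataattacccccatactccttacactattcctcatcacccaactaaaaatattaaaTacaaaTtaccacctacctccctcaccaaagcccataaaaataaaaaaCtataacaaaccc
MT-ATP8: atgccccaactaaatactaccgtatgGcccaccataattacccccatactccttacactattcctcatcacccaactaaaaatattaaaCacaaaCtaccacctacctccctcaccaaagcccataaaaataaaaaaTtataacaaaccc
MTATP8P1 was listed at 1223, 1221 and 1329 RPKM and MT-ATP8 at 2624, 2804 and 2561 RPKM. The copy MTATP6P1 was even listed above its original, at 2590 ± 149 against 1580 ± 52.2 RPKM for MT-ATP6. No source used here says how reads that match both were assigned, so the levels of a copy and its original are uncertain.

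Among protein-coding genes that overlap no other gene, RPS16 led. This protein of the small ribosomal subunit was at 2711, 2427 and 2290 RPKM and had the most counts of all genes. It stood 22.1 times above the median of 84 cytosolic ribosomal protein genes and 2.86 ± 0.0463 times above RPS12, the next of them. FTL, the light chain of the iron store ferritin, followed at 1245, 1098 and 1443 RPKM. FBL, an RNA methylase of the nucleolus, was at 1333, 1222 and 1192 RPKM, PSMC4, an ATPase of the proteasome, at 1161, 1077 and 1029 RPKM, and the chaperone HSP90AB1 at 915, 918 and 932 RPKM. RPS16, FBL and PSMC4 lie within the same stretch of chromosome 19, which is described below. The 100 genes with most counts held 16.3 ± 0.242% of the counts.

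All 41 listed genes of the cytoskeleton and of calcium-binding proteins were expressed, with a median of 102 RPKM, against 56.4% of all protein-coding genes. The list does not cover these classes: S100B, in another list, had no counts, and the actin ACTA2 was at 0.330 RPKM. ACTB and ACTG1, the cytoplasmic actins, were at 1269 ± 50.02 and 1198 ± 41.8 RPKM, and the small calcium-binding protein S100A6 at 1195 ± 95.9 RPKM. TMSB10 and TMSB4X, which hold actin monomers, were at 928 ± 82.7 and 608 ± 58.1 RPKM. The actin crosslinker ACTN4, at 404 ± 16.1 RPKM, exceeded ACTN1, at 35.4 ± 0.968 RPKM, and lies on the same chromosome 19 stretch. A short gene within ACTB, AC006483.1 with 84 bases, headed the whole table by RPKM, and its reads cannot be told apart from those of ACTB. The same holds for AC139149.1, a gene of 84 bases within ACTG1, which was at 3277 RPKM.

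Cell junctions were unevenly represented. Of 16 adherens junction genes 10, or 62.5%, were expressed, against 56.4% of all protein-coding genes. The highest encode proteins inside the cell: VCL, vinculin, at 103, 116 and 98.6 RPKM, CTNNA1 at 36.0 ± 0.760 RPKM, CTNNB1, beta-catenin, at 29.9 ± 0.836 RPKM, and CTNND1 at 29.6 ± 1.73 RPKM. The cadherins of these junctions were lower in every library, with CDH1 and CDH2 as given above and CDH3 at 0.691 ± 0.252 RPKM. EPCAM, an adhesion protein of epithelia, was at 8.78, 7.80 and 7.39 RPKM. Of 24 tight junction genes 15 were expressed and none was undetected, led by CLDN1 at 18.5 ± 0.897 RPKM and F11R at 14.3 ± 0.513 RPKM. CLDN4, CLDN7 and CLDN3 were at 9.96, 6.41 and 2.80 RPKM, while CLDN18, the claudin of the stomach, had 43 counts.

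Desmosomes, the spot welds of epithelia, had PERP far ahead, at 260, 240 and 239 RPKM. Their plaque proteins PKP3 and DSP were at 13.1 ± 0.837 and 4.48 ± 0.722 RPKM, and of the desmosomal cadherins DSG2 alone was expressed, at 3.37 ± 0.365 RPKM. DSG1, DSG4 and DSC1, which belong to stratified epithelia, had no counts. In hemidesmosomes, which tie cells to the basement membrane, CD151 was at 102 ± 5.24 RPKM and ITGA6 at 25.5 ± 0.744 RPKM, but ITGB4, its partner, was at 2.21 ± 0.211 RPKM. LAMB3, a chain of the laminin that this complex binds, had 78 counts. Of 13 gap junction genes 5 were expressed, the channels PANX1 at 21.9 ± 1.94 RPKM and GJC1 at 15.3 ± 1.15 RPKM among them, and GJB1 had no counts.

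All 15 listed genes of the RAS-MAPK pathway, which carries growth signals to ERK, were expressed, against 56.4% of all protein-coding genes. The GTPases HRAS, at 38.8, 33.2 and 32.9 RPKM, and NRAS, at 32.7, 33.6 and 30.0 RPKM, overlapped in their ranges. The kinase ARAF was at 20.1 ± 0.292 RPKM and BRAF, of the same family, at 3.03 ± 0.214 RPKM. MAP2K1, the kinase below them, was at 29.2 ± 1.01 RPKM. Of 17 genes that ERK is known to induce 14 were expressed, led by the AP-1 factor FOSL1 at 175, 164 and 180 RPKM, IER3 at 88.5 ± 7.86 RPKM and the cyclin CCND1 at 57.5 ± 1.99 RPKM. The feedback phosphatase DUSP6 was at 4.11 ± 0.266 RPKM and its relative DUSP4 had 16 counts. EGR1, an immediate early gene, lay around the limit at 0.686, 0.782 and 1.18 RPKM.

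Of 29 further oncogenes 21 were expressed. AKT2, a kinase that promotes survival, was the highest at 122, 129 and 128 RPKM, 7.93 ± 0.274 times the level of AKT1. CDK4 was at 69.1 ± 2.02 RPKM, the mitotic kinase AURKA at 66.8 ± 2.52 RPKM and MYC at 28.1 ± 1.34 RPKM. Of the death inhibitors, BCL2L1 was at 67.4 ± 1.38 RPKM and MCL1 at 43.5 ± 0.179 RPKM, but BCL2 had 57 counts over the 3 libraries. YAP1 and WWTR1, the effectors of the Hippo pathway, were at 38.9 ± 1.99 and 43.0 ± 1.03 RPKM. TERT, the catalytic subunit of telomerase, was expressed at 1.94 ± 0.276 RPKM, and MYCN had 1 count. The genes whose products the compounds of the series are known to inhibit were all expressed, with SUV39H1 at 13.2 ± 0.0497 RPKM and SUV39H2 and EHMT2 at 8.87 ± 0.559 and 7.67 ± 0.290 RPKM.

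Tumour suppressors were mostly expressed, 39 of 46 or 84.8%, against 56.4% of all protein-coding genes. NF2, an inhibitor of YAP1 through the Hippo pathway, was at 31.2, 31.0 and 30.4 RPKM, VHL at 19.2 ± 0.342 RPKM and RB1 at 11.5 ± 0.585 RPKM. SMAD4, which is often lost in pancreatic cancer, was expressed at 2.66, 2.50 and 2.40 RPKM, and the TGF-beta receptor TGFBR2 at 14 ± 0.731 RPKM. SMARCA4, an ATPase of the SWI/SNF complex, lay at the limit with 0.869, 1.16 and 1.09 RPKM, while the subunit SMARCB1 of the same complex was 22.5 ± 5.20 times higher. RNF43, which removes WNT receptors, had 84, 87 and 59 counts. Only CDKN2A and CDKN2B were not detected.

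CDKN2A, which encodes the cell cycle inhibitor p16, lies on chromosome 9 from 21967751 to 21995300 in hg19 and had 0 counts in all 3 libraries. Its neighbour CDKN2B, which encodes p15, likewise had 0. In order of their starts 7 genes in a row had no counts, from RP11-70L8.4 at 21858909 to CDKN2B, and with the antisense gene CDKN2B-AS1, also at 0, they span 262 kb to position 22121096. Inside that span lies UBA52P6, a processed pseudogene of a ubiquitin gene on another chromosome, with 7, 12 and 5 counts. MTAP, a gene of methionine salvage that starts before the span and ends at 21931646, inside it, had 368, 432 and 376 counts, or 0.883 ± 0.0812 RPKM, and DMRTA1, beyond the span, 102, 123 and 128 counts. RP11-145E5.5, which overlaps MTAP and runs on to 22032985, past CDKN2A and CDKN2B, had 363, 432 and 373 counts, or 7.49 RPKM. These nearly equal the counts of MTAP, so the same reads appear to be counted for both. The reads of RP11-145E5.5 and those of MTAP cannot be told apart. Within 2 Mb of CDKN2A, 55 of 74 genes were not detected, against 52.1% of all genes of the table, including 15 of 16 coding genes of the interferon cluster, and 6 were expressed, among them KLHL9 at 2.85 RPKM and FOCAD at 1.66 RPKM. The counts alone do not separate a loss of DNA from silence of the promoters, which was not tested.

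**Figure D3:**
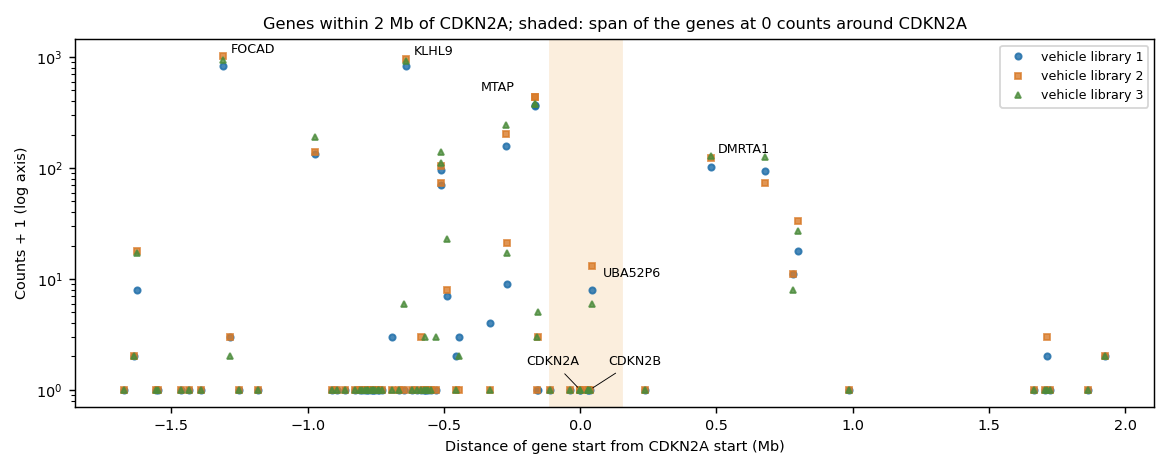
Counts plus 1 (log axis) of each gene within 2 Mb of CDKN2A in the 3 vehicle libraries, against the distance of its start from that of CDKN2A; the shaded span holds the genes at 0 counts around CDKN2A. CDKN2A and CDKN2B lie at 0, UBA52P6 inside the span has 5 to 12 counts, and MTAP on the left has 368 to 432.

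AKT2, on chromosome 19 from 40736224 to 40791443 in hg19, ended a stretch of strongly expressed genes. The stretch was delimited after its values were seen, from SPINT2 at 38734675 over 2.06 Mb, and its levels are a description. Of its 68 protein-coding genes 46 were expressed, against 56.4% of all protein-coding genes. Their median was 76.4, 72.0 and 69.2 RPKM in the 3 libraries, and 41 exceeded the genome-wide median of expressed protein-coding genes. The median of 16 expressed members that overlap no other gene was 97.3 RPKM. The ends were set at high genes: DPF1, just before SPINT2, was at 2.53 RPKM, SPINT2, a protease inhibitor, at 122 RPKM, AKT2 at 126 RPKM and the next gene C19orf47 at 4.58 RPKM. TTC9B and CNTD2, just inside the AKT2 end, were at 1.59 and 0.443 RPKM. In the 2 Mb before SPINT2 the median of 25 expressed genes was 2.53 RPKM, and in the 2 Mb after AKT2 that of 35 was 6.70 RPKM. Many genes before SPINT2 are zinc finger genes, such as ZNF527, ZNF569 and ZNF607 at 1.65, 6.82 and 3.30 RPKM. That side thus differs in kind from most of the stretch. The stretch holds some such genes near its AKT2 end, with ZNF546, ZNF780B and ZNF780A at 12.2, 20.3 and 26.2 RPKM.

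Genes of unrelated function were high together in that stretch. PAF1, a factor of transcription elongation, was at 503 RPKM and SUPT5H, another, at 186 RPKM, while EIF3K, a translation factor, was at 355 RPKM. PSMC4 stood at 1089 RPKM, while the other 5 ATPases of the same proteasome ring ranged from 14.1 RPKM in PSMC6 to 86.3 RPKM in PSMC3. PAK4, a kinase that shapes the actin cytoskeleton, was at 38.4 RPKM. Within the stretch 17 genes reached 100 RPKM, yet 6 genes were not detected, such as the galectins LGALS13, LGALS14 and LGALS16 at 0. The 17 include short genes that overlap others, such as CTB-102L5.4 at 401 RPKM and AC104534.3 at 431 RPKM. Their reads cannot be told apart from those of the genes they overlap, and the windows below hold such genes too. Among 10533 windows of 15 neighbouring expressed protein-coding genes, the median level was 8.61 RPKM and the 95th percentile 18.4 RPKM. The windows were moved gene by gene, so neighbouring windows share most of their genes. The 31 windows above 50 RPKM all lay on chromosome 19 and overlap the stretch. They restate its levels and are not separate regions. The best window elsewhere, on chromosome 11, was at 41.7 RPKM. DNA copy number was not measured in these libraries, and its part in these levels was not tested.

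**Figure D4:**
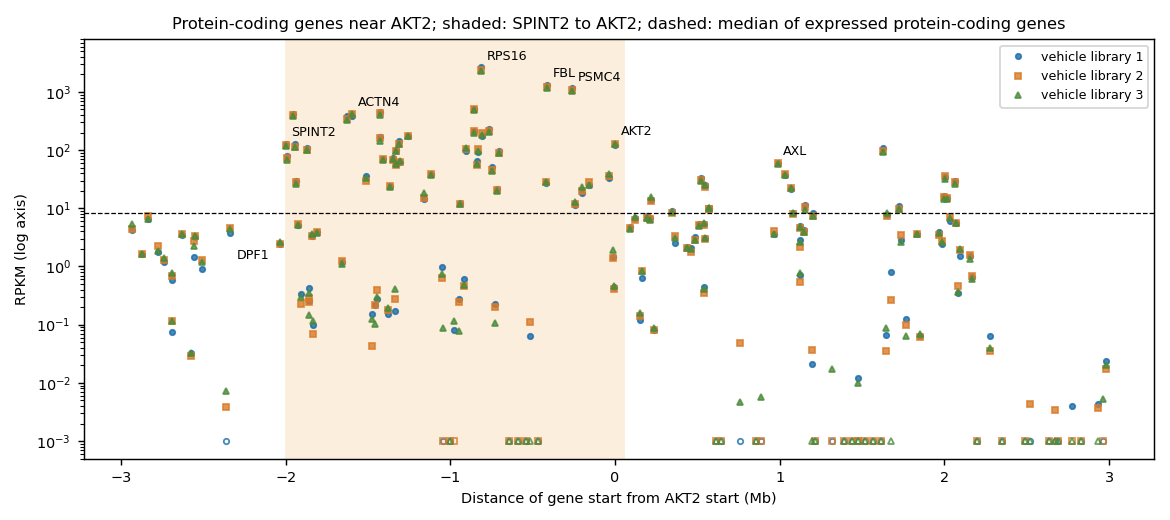
RPKM (log axis) of protein-coding genes within 3 Mb of AKT2 in the 3 vehicle libraries, against the distance of their starts from that of AKT2; the shaded stretch runs from SPINT2 to AKT2 and the dashed line is the median of expressed protein-coding genes, 8.45 RPKM, with open symbols at the bottom for 0 counts. RPS16, FBL and PSMC4 stand highest inside the stretch, from 1029 RPKM upwards, while DPF1 before it and most genes after it lie near or below the line.

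Of 53 receptor tyrosine kinases 23 were expressed, 24 were low and 6 not detected. The expressed share was 43.4%, against 56.4% of all protein-coding genes. EPHA2, a receptor for ephrins, was the highest at 87.2, 91.8 and 93.2 RPKM, followed by AXL, the receptor for GAS6, at 59.9, 59.2 and 57.1 RPKM. MET, the receptor for hepatocyte growth factor, was at 28.1, 31.7 and 30.2 RPKM and EGFR at 19.2, 23.8 and 26.0 RPKM. The EGFR relatives were lower, with ERBB2 at 4.13 ± 0.313 RPKM, ERBB3 at 163 counts and ERBB4 at 23. IGF1R was at 7.15 ± 0.792 RPKM, but the insulin receptor INSR was at 0.263 RPKM. ROS1, MUSK, TEK and NTRK3 had no counts. Among 35 growth factor ligands 17, or 48.6%, were expressed, led by VEGFB at 32.9 ± 1.49 RPKM, PDGFB at 18.4 ± 1.84 RPKM and FGF2 at 7.67 ± 0.331 RPKM. Of the ligands of EGFR, HBEGF was at 5.39 ± 0.776 RPKM, EREG at 0.645 ± 0.0590 RPKM, and AREG and EGF had 3 and 2 counts. HGF, the ligand of MET, had none.

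Of the TGF-beta family 22 of 30 genes were expressed and none was undetected. The signal carrier SMAD3 was at 46.1, 49.9 and 50.3 RPKM, well above SMAD2 at 4.95 ± 0.0789 RPKM, and the ligand TGFB1 was at 22.2 ± 0.464 RPKM. INHBB, an activin subunit, and GDF15, a stress cytokine, were at 23.2 ± 0.226 and 22.8 ± 0.299 RPKM. Among WNT and Notch receptors 12 of 22, or 54.5%, were expressed, close to the 56.4% of all protein-coding genes. LRP5 was at 29.7 ± 1.69 RPKM, FZD7 at 23.9 ± 0.118 RPKM and NOTCH2 at 12.2 ± 1.62 RPKM, while FZD10 had no counts. Of 36 cytokine and death receptors 25 were expressed, led by TNFRSF12A, the receptor for TWEAK, at 70.4, 62.6 and 71.6 RPKM and IL13RA1 at 39.1 ± 2.11 RPKM. The death receptors TNFRSF10B and FAS were at 9.45 ± 0.424 and 2.41 ± 0.189 RPKM. CXCR4, a chemokine receptor, had 68 counts, and IL7R and CCR2, receptors of blood cells, had none.

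Of 46 genes listed as G protein-coupled receptors 20 were expressed and 13 not detected, against 56.4% and 19.0% of all protein-coding genes. The 20 include SORT1, at 3.98 RPKM, which encodes a sorting receptor of another type. F2RL1, the protease-activated receptor cleaved by trypsin, led at 52.5, 53.0 and 54.9 RPKM. GPRC5A was at 47.1 ± 4.41 RPKM, NTSR1, the neurotensin receptor, at 34.6, 34.9 and 39.8 RPKM and the adenosine receptor ADORA2B at 26.8 ± 1.37 RPKM. The receptors through which gut hormones act on the exocrine pancreas were not detected, with CCKAR and SCTR at 0 counts and CCKBR at 2. Of 32 nuclear receptors 17, or 53.1%, were expressed, close to the 56.4% of all protein-coding genes. They were led by NR2F6 at 33.1 ± 0.783 RPKM, ESRRA at 23.8 ± 0.816 RPKM and PPARG at 16.3 ± 0.439 RPKM. NR3C1, the glucocorticoid receptor, was at 6.39 ± 0.476 RPKM. ESR1, an estrogen receptor, had 2 counts, and NR1I2 and NR1H4 had none.

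Receptors for matrix were dominated by a few integrins, with 10 of 25 expressed, against 56.4% of all protein-coding genes. ITGB1, the common beta chain, was at 184, 197 and 196 RPKM and ITGB5 at 72.4 ± 1.9 RPKM. Their alpha partners were ITGA3 at 46.2 ± 5.0 RPKM, ITGAV at 35.5 ± 2.12 RPKM, ITGA6, ITGA2 at 25.3 ± 3.86 RPKM and ITGA5 at 12 ± 0.636 RPKM. Of the integrins of white cells, ITGAE was expressed at 4.46 ± 0.378 RPKM, ITGB2 had 284 counts and ITGA4 had none. Beside CD44, the syndecans SDC4 and SDC1 were at 49.8 ± 0.924 and 47.6 ± 1.01 RPKM, ICAM1 at 47.8 ± 1.44 RPKM and the neural adhesion protein L1CAM at 31.7 ± 2.53 RPKM. MSLN, mesothelin, lay at the limit with 0.993 ± 0.0952 RPKM. CEACAM6 had no counts and CEACAM5 had 4.

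Of 23 collagens 8 were expressed, against 56.4% of all protein-coding genes, with COL18A1, a collagen of basement membranes, at 77.0, 82.3 and 86.6 RPKM, COL5A2 at 22.3 ± 1.31 RPKM and COL1A1 at 5.96, 6.96 and 7.54 RPKM. COL1A2, which supplies the other chain of type I collagen, had no counts, a limit of 0.00161 RPKM. COL4A1 and COL4A2, the main collagens of basement membranes, had 103 and 168 counts, and COL18A1 stood 678 ± 150 times above COL4A2. Of 22 basement membrane genes 9 were expressed, led by the laminin chain LAMC1 at 19.3 ± 1.74 RPKM and by NID1 at 19.1 ± 2.12 RPKM, with LAMB1 and LAMA5 at 15.3 ± 1.31 and 14.8 ± 1.17 RPKM.

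Among matrix glycoproteins CYR61 and CTGF, secreted targets of YAP1, were the highest, at 252, 240 and 235 RPKM and at 75.5 ± 1.10 RPKM. LTBP2 was at 32.5 ± 6.41, TGFBI at 30.2 ± 1.40 and SPARC at 22.7 ± 0.215 RPKM, while DCN and FBN2 had no counts. Enzymes that modify collagen were nearly all expressed, 13 of 15, with P4HB at 120 ± 1.11 RPKM, PLOD1 at 28.9 ± 0.693 RPKM and LOXL2 at 15.4 ± 0.317 RPKM, but LOX itself was at 0.405 ± 0.134 RPKM. CTSD, a lysosomal protease, was at 226 ± 16.3 RPKM. PLAU exceeded its receptor PLAUR, at 0.841, 0.746 and 0.675 RPKM, by 216 ± 24.3 times. Of the matrix metalloproteases MMP2 was at 14.5 ± 0.513 RPKM, MMP14 at 4.74 ± 0.275 RPKM and MMP1 at 1.84 ± 0.298 RPKM, whereas MMP3, MMP12 and MMP13 had no counts. The inhibitor TIMP1 was at 45.4 ± 3.75 RPKM and TIMP3 had 22 counts.

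Of 34 listed genes of the thioredoxin and NRF2 systems, which act in the defence against oxidants, 29 were expressed, against 56.4% of all protein-coding genes. Their median was 36.3 RPKM, and the list includes the inhibitors KEAP1 and TXNIP. TXN, thioredoxin, was at 164 ± 13.8 RPKM and the peroxiredoxin PRDX1 at 374 ± 25.1 RPKM. The NRF2 target NQO1 was at 78.0, 67.3 and 81.4 RPKM and HMOX1, heme oxygenase, at 34.2, 30.3 and 47.9 RPKM, highest in library 3. NFE2L2, which encodes NRF2, and KEAP1, its inhibitor, were at similar levels of 26.2 ± 0.900 and 24.4 ± 0.622 RPKM. Other targets of NRF2 were near absent: AKR1C1, AKR1C2, AKR1C3 and AKR1B10 had 7, 3, 17 and 4 counts. Of 25 glycolysis genes 21 were expressed, led by GAPDH at 895 ± 35.1 RPKM and ENO1 at 689 ± 24.7 RPKM. HK1 at 25.1 ± 1.13 RPKM exceeded HK2 at 2.07 ± 0.240 RPKM, and the lactate exporter SLC16A3 was at 26.9 ± 0.417 RPKM.

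Of 20 antigen presentation genes 13 were expressed. B2M, the light chain of class I molecules, was at 227, 201 and 163 RPKM, lowest in library 3, and the chaperone CALR at 367 ± 20.6 RPKM. HLA-DRA and HLA-DRB1, class II genes of immune cells, had 2 counts each, although CIITA, their activator, was expressed at 1.35 ± 0.169 RPKM. CD274, which encodes PD-L1, had 36 counts. Of 25 secreted cytokines and chemokines 9 were expressed, with MIF at 166 ± 15.3 RPKM, the monocyte attractant CCL2 at 75.8, 63.5 and 85.5 RPKM and CSF1 at 28.0 ± 2.19 RPKM. IL6 had 4 counts, IL1B none and IL8 a level of 0.348 ± 0.104 RPKM.

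The 3 libraries differed little in most genes. Over 5731 genes with a mean of at least 10 RPKM the median ratio of the highest to the lowest library was 1.11 and the median coefficient of variation 5.31%, and in 73 genes the ratio exceeded 1.5. The RNAs of the signal recognition particle, RN7SL1, RN7SL2 and RN7SL3, were among the 10 genes that varied most, and RN7SL1 was at 90.5, 80.1 and 199 RPKM. HSPG2, which encodes perlecan, varied most of the protein-coding genes, at 9.15, 12.2 and 21.7 RPKM. LDLRAD2, which overlaps HSPG2, followed at 13.6, 13.5 and 28.2 RPKM. Then came genes of giant proteins, such as AHNAK at 38.8, 54.5 and 76.4 RPKM and the dynein motor DYNC1H1 at 11.4, 15.3 and 22.1 RPKM, with library 3 highest in each.

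Long genes were relatively lower in library 1 than in the other libraries. Over protein-coding nuclear genes with a mean of at least 10 RPKM, the median ratio of library 3 to library 1 was 0.890 for 730 genes under 2 kb and 1.10 for 74 genes over 12 kb. For library 2 over library 1 it was 0.906 and 1.12. The summed gene counts of libraries 1, 2 and 3 fell short of the deposited totals behind the RPKM values by 1.37%, 1.87% and 3.34%. These are not shares of reads outside genes, since reads of overlapping genes appear to be counted more than once. The part of gene length in the differences of single genes was not tested.

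**Figure D5:**
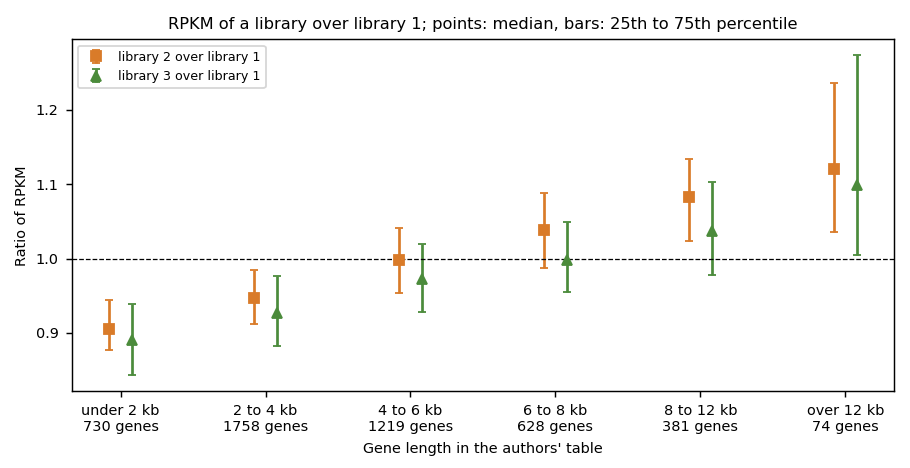
Ratio of RPKM of library 2 and of library 3 to library 1 by gene length in the authors' table, as the median (points) and the 25th to 75th percentile (bars) over protein-coding genes with a mean of at least 10 RPKM. The median climbs from 0.906 to 1.12 for library 2 and from 0.890 to 1.10 for library 3.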

How the data were processed

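RNA was isolated with a column kit that included digestion of DNA, and libraries were prepared by Illumina protocols, per the labels. The submitters' processing notes list CASAVA 1.9, TopHat 12.0.6 (so written there), HTSeq and hg19 and give no roles. The use of strand in counting is not given in these sources. Per the file headers, the table the authors deposited holds 57773 Ensembl genes with positions, a length, and for each library the raw count and the RPKM.

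From the values, the deposited RPKM is the count scaled to the length plus 1 base and to a library total that exceeds the summed gene counts. Some overlapping genes, such as MTAP and RP11-145E5.5, have nearly equal counts. Summed gene counts, and shares of them, may therefore hold a read more than once. RPKM values were used as deposited, with no pseudocount and no test, since the 3 libraries form 1 group. Gene types came from GENCODE 29 by Ensembl identifier, which matched 90.6% of genes, and coordinates from the authors' table. A gene is said to overlap where its span meets that of another gene on either strand. Python 3.11.15, pandas 2.3.3, numpy 2.4.6 and matplotlib 3.10.9 were used, and the classing of genes was tested on simulated data.

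The lists of 962 genes, of which 956 were found in the table, and the genes described were chosen with earlier results of these data known. Genes named were drawn mainly from the 25 highest by RPKM, the 10 with most counts, the 5 markers and the 10 genes that vary most. Further sources were up to 4 highest members of each list, those at 0 or not detected and those its name turns on. Genes within 2 Mb of CDKN2A were the last source. Not every gene of these sets is named. The chromosome 19 stretch, the ratios of pairs, the lengths and the closing observations were added after values were seen. Of the 956 genes 580 overlap another. Genes of the lists that were not found in the table are not analysed here, and some others are not reported here. A planned comparison of promoters between classes is void, since 78.1% of protein-coding genes matched the RefSeq promoter table, and is not reported. Alternatives were other thresholds, TPM, rescaled RPKM, other shares and each library left out in turn.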

Additional observations from a re-analysis of the deposited data

How the results depend on the processing

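No paired analysis was possible because the result comes from no test and only 1 group is described. The number of expressed genes, 14162, was 16166 at a limit of 0.5 RPKM, 10494 at 3 RPKM, 17088 at 1 TPM, 14242 with RPKM rescaled to the summed gene counts, and 14299 to 14409 with a library left out. The number not detected, 30077, was 24527 at 0 counts, 34187 at up to 10 counts and 31238 to 32018 with a library left out. The share of counts in the 100 genes with most counts, 16.3%, became 15.4% without mitochondria-encoded genes and was 16.2% to 16.5% with a library left out. The alternative as a share of summed RPKM gave 30.5%. The 100 genes with most counts held a lower share of summed RPKM, so 30.5% is not a value for those same genes. The mitochondrial share, 2.51%, became 10.2% of summed RPKM, where short genes weigh more, and 3.71% with the chromosome 1 copies added, an alternative chosen after seeing the data. It was 2.44% to 2.55% with a library left out. Of the 956 listed genes 52 moved by more than 1 SD when RPKM was rescaled, 2 became expressed and none ceased to be, and with each library left out in turn 1 to 5 became expressed. In each library more genes had 2 counts than 1 (2184 against 1888 in library 1), so small counts are not shown to be independent reads, and a gene at 1 to 3 counts is not shown to be expressed.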

Other observations

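Some keratins of stratified epithelia had most of their counts in 1 library. KRT6A, a keratin of activated epidermis, had 0, 0 and 857 counts in libraries 1, 2 and 3, and KRT3, a keratin of the cornea, had 728, 0 and 0. KRT5, the basal keratin, had 5, 87 and 2 counts and KRT13, a keratin of the mouth and esophagus, 20, 67 and 0. Over all 57773 genes only 8 had at least 50 counts in a library and at most 2 in another, and 4 of them were keratins, the other 4 being AL138764.1, DAP3P1, F8A2 and NPIPA5. KRT6A was highest in library 3, KRT3 in library 1, and KRT5 and KRT13 in library 2, and KRT14, the usual partner of KRT5, had no counts. These genes were picked after their values were seen, and the origin of the reads was not tested.

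Long runs of neighbouring protein-coding genes were not detected in any of the 3 libraries. The longest ran from OR4B1 to APLNR on chromosome 11, with 60 genes of which 52 encode olfactory receptors. A run of 45 genes from CRNN to S100A7 on chromosome 1 held 38 genes of the epidermal differentiation cluster. A run of 35 genes from GRIK1 to KRTAP19-8 on chromosome 21 held 32 genes of hair keratin-associated proteins. The runs were found after the values were seen.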
